A study of Mus musculus with 6 samples.

Results

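The genes described here are 10 genes of the integrated stress response that is run by the transcription factor ATF4: Atf4, Atf5, Ddit3, Trib3, Asns, Psat1, Chac1, Eif4ebp1, Sesn2 and Fgf21. They were chosen by name, and every probe annotated to them on the array was read, 18 probes in all, out of 34885 probes that name 1 gene and 19057 genes. RNA came from MC38 cells, a mouse colon carcinoma line, that had been injected into the spleen of CD11bDTR transgenic mice and sorted from the tumour-bearing livers by flow cytometry on day 10. The groups differ in what the mice were given intraperitoneally on days 7 and 9, which was PBS in 3 samples and diphtheria toxin (DT) in 3 samples. All hosts of both groups carried the transgene, which puts a toxin receptor under the CD11b promoter of myeloid cells. The comparison asks how tumour-cell transcripts differ when DT is given to deplete those cells. As no sample comes from a DT-treated host without the transgene, depletion and other effects of DT cannot be told apart. The labels give no age or strain of the mice, and they do not say whether a sample is 1 mouse or a pool, and the spread behind every p-value is that between samples, which may be technical.

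In the integrated stress response, kinases that sense amino acid shortage, unfolded protein, haem lack or double-stranded RNA phosphorylate the initiation factor eIF2. Protein synthesis then slows in general, while the Atf4 transcript is translated more. ATF4 protein pairs with C/EBP factors and binds composite C/EBP-ATF response elements (CARE) in genes for amino acid synthesis and uptake, tRNA charging and feedback on the response. Since ATF4 is controlled largely at translation, the level of its transcript is not a measure of the protein.

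The element carries the letters TGATGNAA, or TTNCATCA when it lies on the other strand. RefSeq promoter windows of 300 bases (250 before to 50 after the transcript start, GRCm38.p6) were found for 9 of the 10 genes, Eif4ebp1 being the gene without one, and 4 of the 9 held these letters. The 4 stretches shown are the matches found in these windows. Their part in the DT values was not tested. Each line gives 30 bases 5′ to 3′ along the strand of the gene, with the match in capitals.
Trib3, chr2:152344028-152344057, minus strand: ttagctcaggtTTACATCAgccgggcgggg
Chac1, chr2:119351038-119351067, plus strand: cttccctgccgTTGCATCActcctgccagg
Asns, chr6:7693214-7693243, minus strand: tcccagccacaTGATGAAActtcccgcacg
Fgf21, chr7:45615611-45615640, minus strand: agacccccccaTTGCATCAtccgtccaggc
The match begins 14 bases after the transcript start in Trib3 and 193, 23 and 139 bases before it in Chac1, Asns and Fgf21. Of all 32851 RefSeq promoter windows of this length, 3.97% held the letters on either strand, against 4 of the 11 windows of these 9 genes. The genes were chosen as genes of the ATF4 response, so this share is a description and no test. The windows of Atf4, Atf5, Ddit3, Sesn2 and Psat1 did not hold them, which says nothing of sites outside these windows. The cyclic AMP response element TGACGTCA was in 0 of the 11 windows of these genes and in 1.79% of all windows.

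None of the 10 genes passed an adjusted p of 0.05 between DT and PBS (limma, Benjamini-Hochberg over 9483 genes), where 1.09% of all genes did, 0.759% lower and 0.327% higher. Their values were mostly lower in DT: 9 of 10 had a negative difference, against 48.7% of all genes, and the median was −0.39 on the log2 scale against 0.01. At an unadjusted p under 0.05, 5 genes were lower and 0 higher, where 11.9% of all genes were lower and 12.0% higher, 23.9% together. In the same 5 genes, Trib3, Eif4ebp1, Asns, Fgf21 and Chac1, all 3 DT values lay below all 3 PBS values, which held for 14.0% of all genes, while 15% lay the other way and 28.9% in all did not overlap. These genes were named with earlier results of the same arrays known, so that their number is a description.

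**Figure D1:**
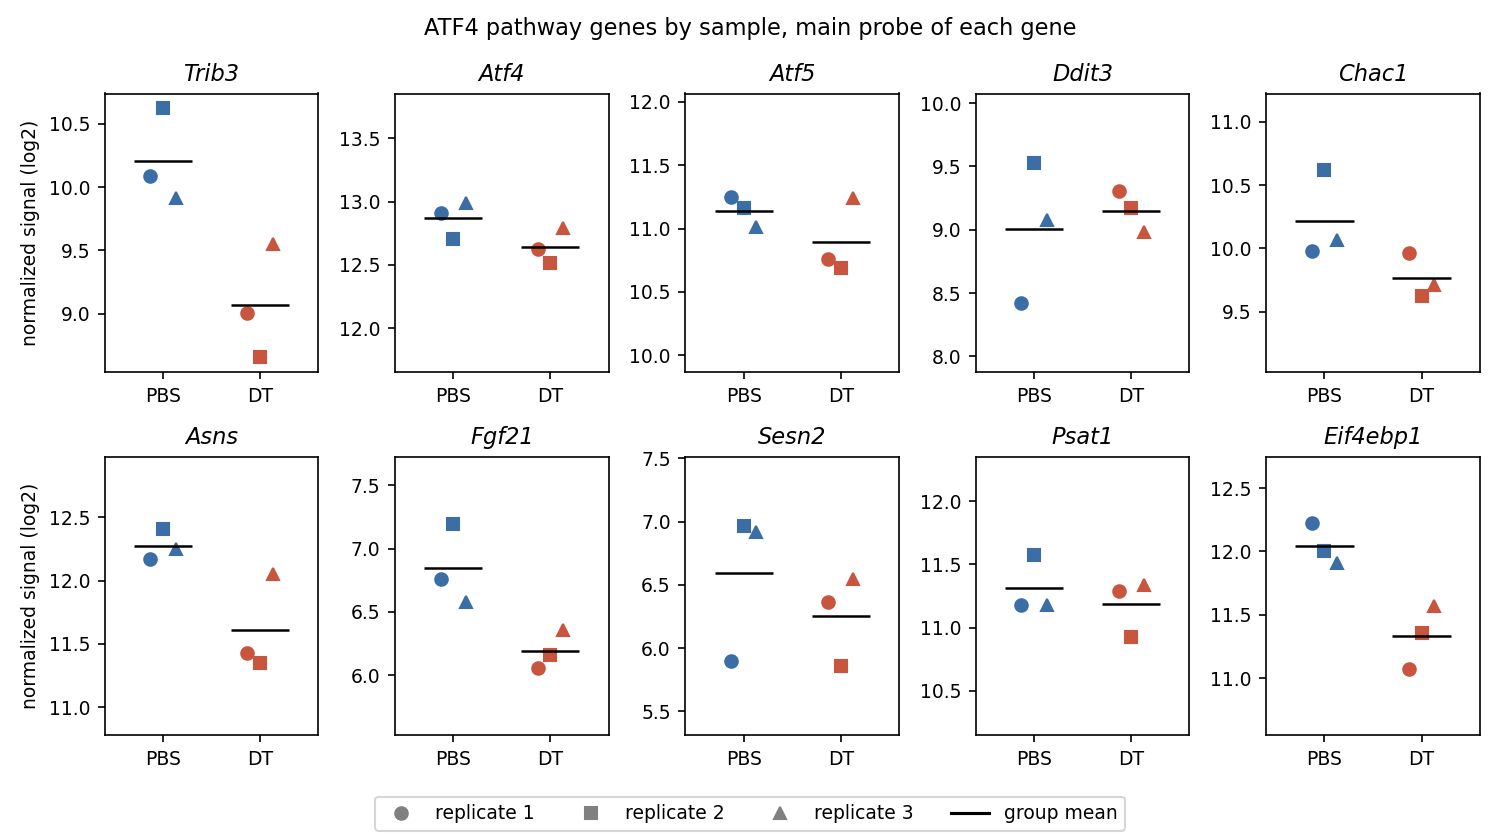
Normalized log2 signal (vertical axis, the same span in each panel) of the 10 genes in the PBS and DT samples, with 1 point a sample and a line at the group mean. The DT points lie below the PBS points in Trib3, Chac1, Asns, Fgf21 and Eif4ebp1 and overlap them in the other panels.

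Trib3 encodes a pseudokinase that is induced by ATF4 and CHOP and feeds back on ATF4. Its main probe (ILMN_1225528) had normalized log2 signals of 10.09, 10.62 and 9.92 in PBS replicates 1 to 3 and of 9.01, 8.66 and 9.55 in DT replicates 1 to 3. Every DT sample was below every PBS sample, with DT replicate 3 nearest to PBS. The mean went from 10.21 ± 0.37 to 9.07 ± 0.45 (SD, n = 3), 2.20-fold lower in DT, and the difference of −1.14 (SE 0.25, 95% interval −1.70 to −0.58) missed the threshold (limma, adjusted p = 0.0568). It was lower than that of all but 0.59% of the genes tested. Before any normalization, PBS replicates gave deposited signals of 1480.3, 972 and 1146, against 496, 657 and 901 for DT, and these did not overlap either, which held in that direction for 1.1% of all genes and for Trib3 alone among the 10. Trib3 has another 2 probes, both dim, with signals between 154 and 189. They gave −0.37 each (SE 0.34 and 0.27), with overlapping groups, and averaging the 3 probes gave −0.63. The adjusted p of the main probe was 0.0264 without DT replicate 3 and from 0.0643 to 0.246 without any other sample.

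The transcription factors of the set gave smaller differences, with intervals that include 0. Atf4 itself was bright, at log2 12.91, 12.70 and 12.99 in PBS and 12.63, 12.52 and 12.79 in DT. The groups overlapped through PBS replicate 2 and DT replicate 3, and the difference was −0.22 (SE 0.16, 95% interval −0.57 to 0.12; limma, adjusted p = 0.410). A second Atf4 probe (ILMN_1223734) gave 0.13 (SE 0.16), so that the direction for Atf4 depends on the probe, and scaling to a common median turned it to 0.0066. Atf5, a related factor that is also translated under eIF2 phosphorylation, had 11.25, 11.16 and 11.01 in PBS and 10.76, 10.69 and 11.24 in DT. DT replicate 3 was at the PBS level there, and the difference was −0.25 (SE 0.18, adjusted p = 0.435). Ddit3 encodes CHOP, the factor tied to cell death under lasting stress, and was the 1 gene of the 10 with a positive difference. It had 8.43, 9.53 and 9.08 in PBS and 9.31, 9.17 and 8.98 in DT. The PBS samples spanned both ends of the range, the difference was 0.14 (SE 0.25, 95% interval −0.41 to 0.70; adjusted p = 0.767), and its second probe gave 0.13 (SE 0.24). Without PBS replicate 1, its lowest sample, the difference was −0.15.

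**Figure D2:**
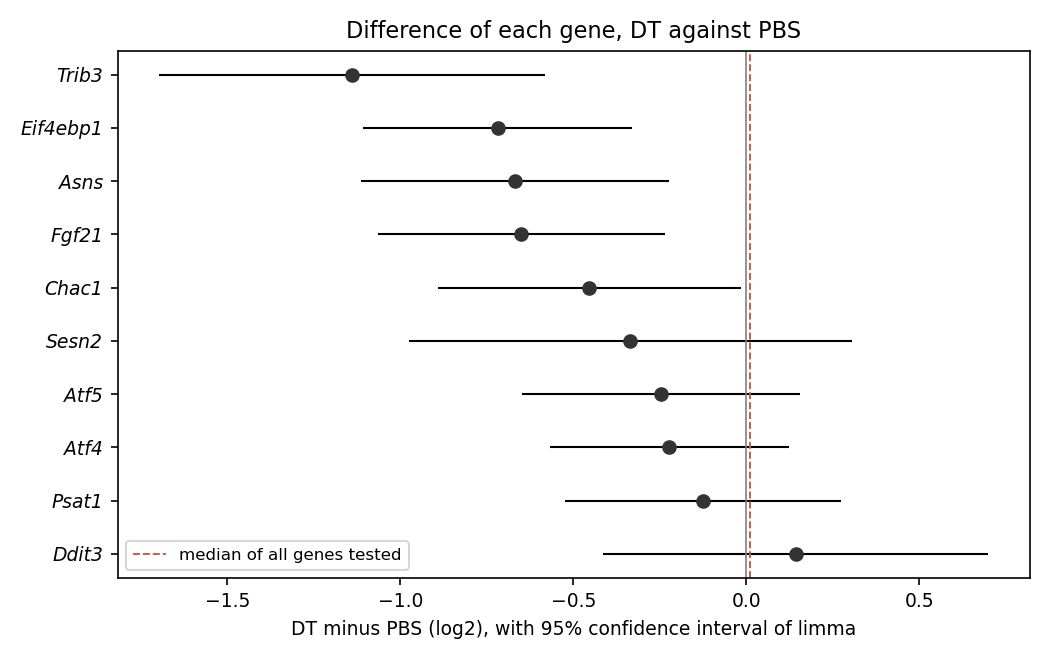
DT minus PBS difference on the log2 scale (horizontal axis) for each of the 10 genes, with 95% confidence intervals from limma and the median of all genes as a dashed line. The intervals of Trib3, Eif4ebp1, Asns, Fgf21 and Chac1 lie below 0, before any adjustment for the number of genes, and those of the other 5 genes include 0.

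Eif4ebp1 encodes 4E-BP1, which binds the cap-binding factor eIF4E and blocks translation until mTORC1 phosphorylates it. It had log2 signals of 12.23, 12.01 and 11.91 in PBS and 11.07, 11.35 and 11.57 in DT. All DT samples were below all PBS samples, with DT replicate 1 the lowest. The mean went from 12.05 ± 0.16 to 11.33 ± 0.25 (SD, n = 3), a difference of −0.72 (SE 0.17, 95% interval −1.11 to −0.33; limma, adjusted p = 0.0613). Its single probe gave signals before normalization of 5634, 2471 and 4257 in PBS and 1765, 3589 and 3289 in DT, and on that scale the groups overlapped through PBS replicate 2, the array with the lowest mean signal. The adjusted p was 0.0464 without DT replicate 3. Sesn2 encodes Sestrin 2, a leucine sensor that restrains mTORC1. Of its 3 probes, 2 were not above background on any array, and the third, dim, had 5.90, 6.96 and 6.92 in PBS and 6.36, 5.86 and 6.55 in DT. PBS replicate 1 lay among the DT samples, and the difference was −0.34 (SE 0.29, adjusted p = 0.508).

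Asns encodes asparagine synthetase and is a classic ATF4 target. Its main probe (ILMN_2643513) had 12.17, 12.41 and 12.25 in PBS and 11.43, 11.35 and 12.05 in DT. The DT samples were all lower, but DT replicate 3 lay only just under the lowest PBS sample. The mean went from 12.28 ± 0.12 to 11.61 ± 0.39 (SD, n = 3), a difference of −0.67 (SE 0.20, 95% interval −1.11 to −0.22; limma, adjusted p = 0.0974), with an adjusted p of 0.0304 without DT replicate 3. The probes of Asns did not move together: ILMN_3006123 gave −0.19 (SE 0.26), the dim ILMN_2636755 gave 0.31 (SE 0.26), and the mean of the 3 probes gave −0.18. Psat1 encodes phosphoserine aminotransferase of serine synthesis. It had 11.18, 11.57 and 11.18 in PBS and 11.29, 10.93 and 11.34 in DT. Here the groups overlapped widely, with a difference of −0.13 (SE 0.18, 95% interval −0.52 to 0.27; adjusted p = 0.704) that was 0.0058 without PBS replicate 2 and 0.0031 without DT replicate 2.

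**Figure D3:**
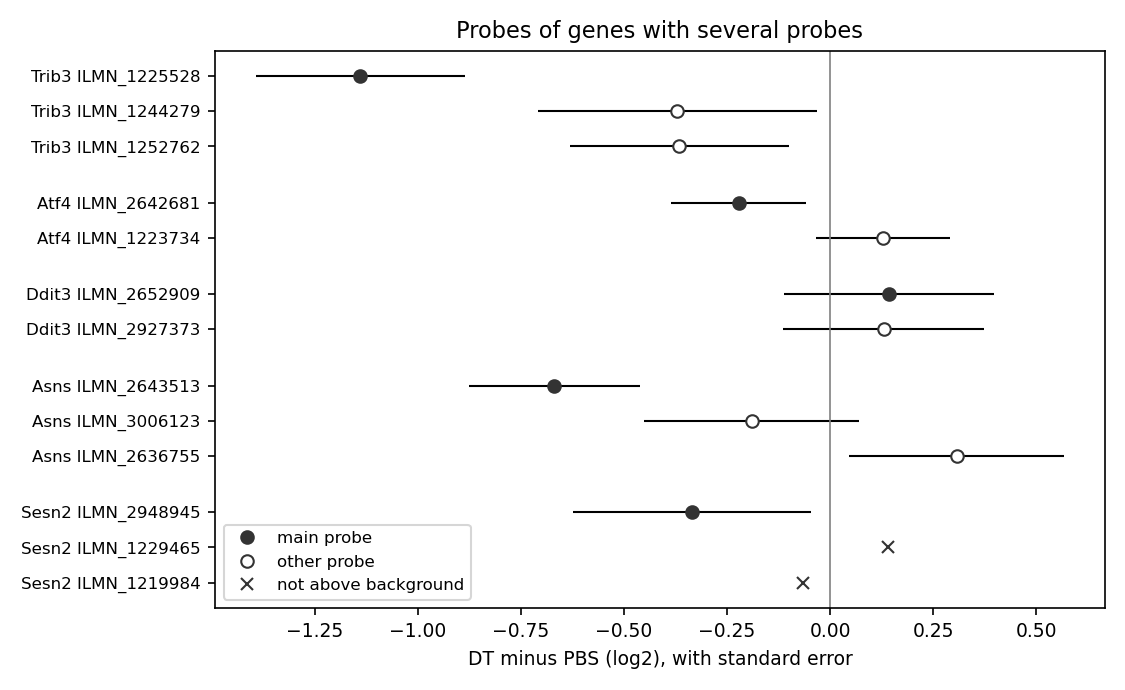
DT minus PBS difference on the log2 scale (horizontal axis, bars are standard errors) of every probe of the 5 genes with several probes. The main probes of Trib3 and Asns stand at −1.14 and −0.67 and their other probes between −0.37 and 0.31, while both Ddit3 probes agree within their errors.

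Chac1 encodes an enzyme that degrades glutathione and is a downstream target of ATF4 and CHOP. It had 9.98, 10.62 and 10.06 in PBS and 9.96, 9.63 and 9.71 in DT. The groups were separate by a narrow margin, between PBS replicate 1 and DT replicate 1. The difference was −0.45 (SE 0.20, 95% interval −0.89 to −0.02; limma, adjusted p = 0.196), and −0.25 without PBS replicate 2. Fgf21 encodes a hormone that ATF4 induces and that hepatocytes secrete under fasting. It was dim, with 6.76, 7.19 and 6.58 in PBS and 6.06, 6.16 and 6.36 in DT. All DT samples were lower, and the difference was −0.65 (SE 0.19, 95% interval −1.07 to −0.24; adjusted p = 0.0868). Without background correction its difference was −0.29. Hepatocyte markers bear on this gene: 8 of 11 listed, Alb, Apoa1, Serpina1a, Cyp3a11, Cyp2e1, Tat, Fgb and Cps1, stayed at background on every array. For the 3 measured ones (Apoa2, Arg1 and Ttr), the normalized signal summed to 487, 860.2 and 499.9 in PBS and 478, 363 and 527 in DT, highest in PBS replicate 2, which was also the highest sample of Fgf21. Arg1, also made by macrophages, carried that sum with a difference of −0.60 (SE 0.25), whereas Apoa2 gave 0.68 (SE 0.22) and Ttr 0.35 (SE 0.28). Their part in the value of Fgf21 was not tested.

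The same samples were often the highest or the lowest. PBS replicate 2 was the highest sample in 7 of the 10 genes and DT replicate 2 the lowest in 7. Relative to each gene's own mean over the 6 arrays, the 10 genes had a median of 0.19 on PBS array 1, 0.46 on array 2 and 0.14 on array 3, and of −0.20, −0.35 and −0.03 on the corresponding DT arrays. DT replicate 3 was therefore close to the middle, above the mean in 5 of the 10 genes. PBS replicate 2 had the lowest mean signal of all arrays (311) and DT replicate 2 the highest (503). Among the other 4 arrays brightness ran the opposite way, with mean signals of 473 in PBS replicate 1, 449 in PBS replicate 3, 436 in DT replicate 3 and 363 in DT replicate 1, the same order as their medians of the 10 genes. The part of array brightness in the result was not tested.

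**Figure D4:**
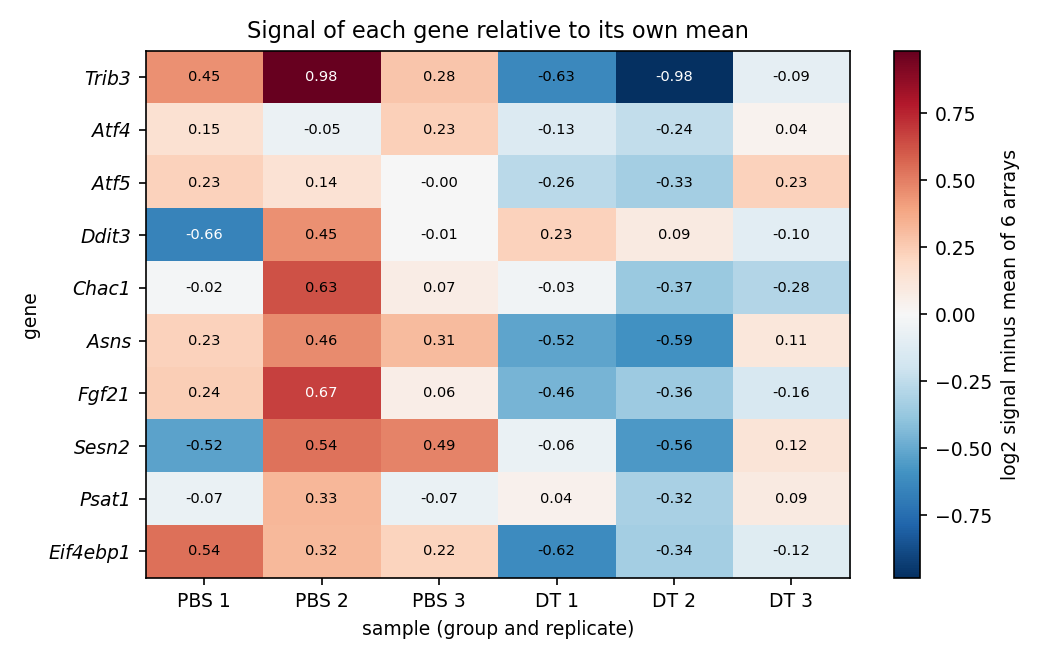
Normalized log2 signal of each gene (rows) in each sample (columns) minus the mean of that gene over the 6 arrays, red for higher and blue for lower. PBS 2 holds the highest value in 7 of the 10 rows and DT 2 the lowest in 7.

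The genes were also set against Atf4 on the same array, in deposited signals from which no background was taken. Relative to the signal of the main Atf4 probe, a measure chosen after the values were seen, Trib3 stood at 0.170, 0.229 and 0.133 in PBS and 0.0955, 0.0830 and 0.121 in DT. The same ratio for Asns was 0.632, 0.784 and 0.620 in PBS and 0.435, 0.452 and 0.614 in DT. For Eif4ebp1 it was 0.647, 0.581 and 0.494 in PBS and 0.340, 0.453 and 0.440 in DT. In these 3 of 9 genes the DT ratios lay below all PBS ratios, and in Chac1, Atf5, Psat1 and Ddit3 they overlapped. The ratios of Fgf21 and Sesn2, counted in the 9, are not read. Their signals (167 to 261 and 178 to 251) lie little above the 127 to 156 of the Sesn2 probes at background. Of 9482 genes set against Atf4, 4.49% had all DT ratios below all PBS ratios. That share includes dim genes of this kind, so it is not a like measure for the 3 genes. For one such ratio, the smallest p of an exact permutation test with 3 samples against 3 is 0.1. After subtraction of each gene's own mean, the 3 genes nearest to Trib3 over the 6 arrays were Shisa4, the O-GlcNAc transferase gene Ogt and the histone gene H4f16. Their root mean square differences from Trib3 were 0.11, 0.13 and 0.14 on the log2 scale. Their DT minus PBS differences were −1.002, −1.23 and −1.30 (limma, adjusted p = 0.0568, 0.0482 and 0.0434). These genes were picked for likeness to Trib3 on the same arrays, so that a similar fall follows from the choice.

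Among the other genes of the pathway, those for tRNA synthetases were the ones with members past the threshold. Of 19 measured cytosolic synthetase genes, 2 were lower and 0 higher at an adjusted p of 0.05, where 0.759% of all genes were lower, and the median was −0.29. Cars, the cysteinyl-tRNA synthetase, had 8.68, 8.05 and 8.75 in PBS and 7.19, 7.01 and 7.62 in DT. In limma it fell by 1.22 (log2, SE 0.23, adjusted p = 0.0459), and the groups did not overlap. Hars, the histidyl-tRNA synthetase, had 7.43, 7.38 and 7.25 in PBS and 6.50, 6.45 and 6.73 in DT, and fell by 0.79 in limma (SE 0.15, adjusted p = 0.0459). Both calls were lost when dim probes were left in (limma, adjusted p = 0.113 for each), in an unmoderated model (0.229 and 0.223) and with scaling to a common median (0.439 and 0.865), and without PBS replicate 1 (adjusted p = 0.0922 and 0.0945), PBS replicate 3 (0.0768 and 0.0706), DT replicate 1 (0.145 and 0.147) or DT replicate 2 (0.225 and 0.228), and that of Hars also without PBS replicate 2 (0.0602), with the mean of its probes (−0.46, adjusted p = 0.145) and with the replicate number as a block (0.0883). At an unadjusted p under 0.05, 7 synthetase genes were lower and 1, Eprs (0.38), was higher, where 11.9% of all genes were lower and 12% higher.

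In serine, one-carbon and amino acid synthesis 9 genes were measured, with a median of −0.39 and 8 negative differences, and 0 passed. At an unadjusted p under 0.05, 3 were lower and 1 higher, where 11.9% of all genes were lower and 12% higher. Phgdh, the first enzyme of serine synthesis, gave 0.50 (SE 0.15), against −0.80 (SE 0.27) for the mitochondrial serine hydroxymethyltransferase Shmt2 and −0.39 (SE 0.16) for its cytosolic relative Shmt1, and in limma their adjusted p-values ran from 0.103 to 0.184. The 5 measured amino acid transporters had a median of −0.09, with 0 past the threshold. The glutamine carrier Slc38a2 gave −0.72 (SE 0.19, adjusted p = 0.0737) and was the 1 transporter with an unadjusted p under 0.05, beside −0.40 (SE 0.19) for the glycine carrier Slc6a9 and 0.35 (SE 0.18) for the neutral amino acid carrier Slc1a4.

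Upstream of ATF4, 19 genes of the eIF2 kinases and their control were measured, with a median of 0.06 and 0 past the threshold. At an unadjusted p under 0.05, 4 were higher and 2 lower. Of all genes, 12% were higher and 11.9% lower there, which is the share to set beside each list of this paragraph. Gcn1, which activates the amino acid sensing kinase GCN2, gave −0.85 (SE 0.19), the adaptor Nck1 gave 0.75 (SE 0.17), and Ppp1r15a, encoding GADD34, which directs eIF2 dephosphorylation and is itself a target of the response, gave −0.74 (SE 0.20). Their adjusted p-values were 0.0568, 0.0568 and 0.0814 in limma, and Gcn1 was above background on 1 of the 3 DT arrays. Eif2ak3 and Eif2ak4, the genes of PERK and GCN2, did not pass the filter on dim probes. The bZIP partners had a median of −0.22 over 8 genes with 0 past the threshold, and 1 was higher and 1 lower at an unadjusted p under 0.05. Atf2 gave 0.43 (SE 0.16) and Cebpd −0.28 (SE 0.15). The 1 lower gene was Batf3, which was above background on 3 PBS arrays and 0 DT arrays and so passed the filter only through the group where it is high, with only a bound in DT. The other ATF4 targets had a median of 0.09 over 18 genes with 0 past the threshold, 1 higher and 2 lower at an unadjusted p under 0.05. Among them the cell cycle inhibitor Cdkn1a, also a p53 target, gave −1.22 (SE 0.31, adjusted p = 0.0648), Klhl24 gave 0.67 (SE 0.19) and the growth factor Nrg1 −0.64 (SE 0.20).

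Neighbouring stress pathways had medians near that of all genes, and none of their genes passed. At an unadjusted p under 0.05, 12% of all genes were higher and 11.9% lower, to be set beside the counts of these lists. The chaperones and ATF6 or XBP1 targets of the endoplasmic reticulum had a median of 0.02 over 17 genes, with 1 higher and 1 lower. Syvn1, a ubiquitin ligase of the degradation pathway, gave −0.52 (SE 0.18), its partner Sel1l 0.42 (SE 0.15) and the disulfide isomerase Pdia6 0.36 (SE 0.17). Mitochondrial chaperones and proteases had a median of −0.05 over 9 genes, with 0.64 (SE 0.20) for the protease Yme1l1, the 1 gene with an unadjusted p under 0.05, −0.31 (SE 0.15) for Afg3l2 and −0.32 (SE 0.16) for Trap1. Around mTORC1 and 4E-BP1 the median was −0.02 over 17 genes, with 4 higher and 1 lower at an unadjusted p under 0.05. The arginine sensor relative Castor2 gave 0.71 (SE 0.20), the mTOR inhibitor Deptor 0.73 (SE 0.21) and the mTORC1 activator Rheb 0.46 (SE 0.15), Deptor being above background on 1 of the 3 PBS arrays. Tribbles relatives and glutathione genes had a median of 0.00 over 7 genes and none with an unadjusted p under 0.05, with −0.22 (SE 0.17) for Trib1, 0.20 (SE 0.22) for Ggct and 0.15 (SE 0.29) for Chac2.

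**Figure D5:**
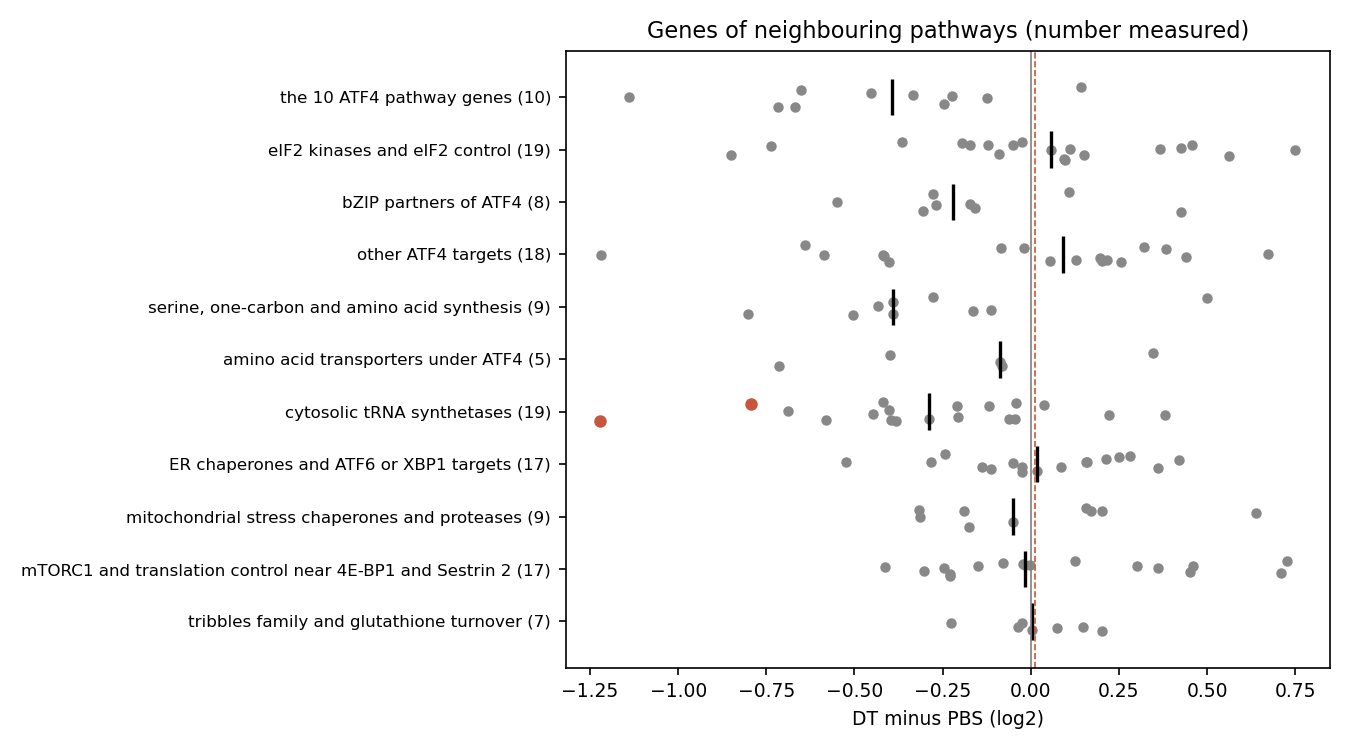
DT minus PBS difference on the log2 scale (horizontal axis) of each measured gene in the 10 ATF4 pathway genes and in 10 neighbouring lists, with 1 point a gene, a bar at the median of each list and a dashed line at the median of all genes. Red points, Cars and Hars, are the ones past an adjusted p of 0.05.

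The letters of the response element were set against the fold changes of every gene with a promoter window. The 219 measured genes with a match had a median of −0.05. In 19.6% of them all DT values lay below all PBS values, and in 12.8% above. The 7504 measured genes without a match had a median of 0.02 and shares of 13.7% below and 15.3% above. At an adjusted p of 0.05, 3 genes (1.37%) of the first group and 54 (0.72%) of the second were lower. A match of the letters does not show that ATF4 binds there. These are descriptions with no test, and the first group includes Trib3, Chac1, Asns and Fgf21.

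Transcripts listed as markers of other cell types also differed between the samples. For 12 measured macrophage and monocyte markers the summed normalized signal was 5441, 5412 and 2289.6 in PBS and 1775, 1796 and 2293 in DT, with Itgam, which encodes CD11b, and Clec4f not above background on any array. PBS replicate 3 was at the level of DT replicate 3. All 12 differences were negative, against 48.7% of all genes, but 0 passed the threshold. The smallest adjusted p in limma was 0.0601, for Laptm5. The sum of 6 measured neutrophil markers was 873, 437 and 335 in PBS and 2950.1, 2448 and 1435 in DT, with Cxcr2 not above background on any array. S100a8 and S100a9 made up most of it. S100a8 (2.18, SE 0.35) rose past the threshold. Lcn2 and Retnlg were also past it, but were above background on 0 PBS arrays and 3 DT arrays. They thus passed the filter only through the group where they are high, with only a bound in PBS. The neutrophil receptor gene Csf3r gave −0.50 (SE 0.16) and Elane −0.21 (SE 0.19). The sum of 10 stellate cell and fibroblast markers was from 22980.3 to 33805 in PBS and from 35399.7 to 37957 in DT, with Lrat and Des not above background. Dpt (1.74, SE 0.17) was the 1 gene of that list past the threshold. Of the 10, 8 had a positive difference and 2 a negative one, Col1a1 (−0.14, SE 0.30) and Col1a2 (−0.15, SE 0.27). Whether these transcripts came from other cells in the sort or from the MC38 cells themselves cannot be told here. Fewer cells of a type and less RNA per cell cannot be told apart either. The part of these markers in the results was not tested. Of 12 epithelial markers of the colon, 7 (Krt18, Krt19, Krt20, Epcam, Cdx2, Vil1 and Cdh17) were not above background on any array. Krt8 and Lgals4 were above it on all 6 arrays, Cdh1 and Cldn7 on 3 each and Cdx1 on 1. Of the endothelial list 1 of 10 markers, Flt1, and of the T, NK and B cell list 2 markers, Nkg7 and Cd3e, passed the filter.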

How the data were processed

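For each probe the authors deposited a linear signal, an intensity not normalized between arrays, and a detection p-value, per the file headers. They also deposited normalized log2 values, whose making is not given in the sources used here, and these served as an alternative. Per the labels' protocols, RNA was extracted with Trizol, amplified by oligo-dT priming (Illumina kit) and biotin-labelled. The arrays had median signals from 135 to 154, and 36.7% to 40.6% of the 45281 probes lay above background (detection p under 0.05). The number of arrays limits the precision.

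R 4.3.3 and limma 3.58.1 were used, signals being processed by neqc (normexp background from the detection p-values, offset 16, quantile normalization, log2), which shrinks differences of dim genes and removes changes shared by all genes. The filter kept 17759 probes, those above background on 3 or more of 6 arrays, and of the 18 probes of the 10 genes 16 passed. A gene was read by its brightest kept probe (mean of all arrays), which gave 9483 genes, the 10 genes included. Names came from the platform annotation, updated through Entrez identifiers. Of all probes, 34885 had 1 gene, 18 several and 10378 none named here. The test was limma's moderated one (lmFit, eBayes) over all genes, two-sided with Benjamini-Hochberg adjustment, and values are DT minus PBS. A summed marker signal is the sum over genes of the linear normalized value minus 16. The genes, the lists and the tests were chosen with earlier results of these data known. Of each pathway list the text names the genes past the threshold, or else the 3 with the smallest p. Further names in the text were chosen after their values were seen. In data simulated for DT against PBS over 9483 genes, recovery was 3 of 50 genes at a log2 change of 0.5, 33 of 50 at 1, 43 of 50 at 1.5 and 46 of 50 at 2, with 2 false calls among 127. Figures were drawn with matplotlib 3.10.9.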

Additional observations from a re-analysis of the deposited data

How the results depend on the processing

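Of 18 alternatives run for each of the 10 genes, Trib3, Atf5, Chac1, Asns, Fgf21, Sesn2 and Eif4ebp1 kept a negative difference in every one. The number of the 10 genes past the threshold, 0 of 10 as reported, was 3 with a normexp offset of 50, without background correction, with an intensity trend or with array weights, 1 with the deposited normalized values or a detection p under 0.01, and 4 at an adjusted p under 0.1. Of 9483 genes, 103 (1.09%) passed, against 654, 558, 772, 1059, 313, 264 (of 8519) and 755 in that order. Scaling to a common median gave 27 and the replicate block 30. No filter (of 19057) and an unmoderated model gave 0, with 7.64% and 9.07% of genes lower at an unadjusted p under 0.05. Leaving out 1 sample gave from 0 to 3 of the 10 genes, with all 3 calls (Trib3, Asns and Eif4ebp1) coming without DT replicate 3, and from 0 (without DT replicate 2, with 6.94% lower at an unadjusted p under 0.05) to 375 over all genes.

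Trib3 passed at −1.09 with an offset of 50 (adjusted p = 0.0118), −0.98 without background correction (0.0282), −1.09 with the deposited values (0.0340), and −1.14 with the stricter filter (0.0470), the trend (0.0060) or the looser threshold (0.0568), and at −1.004 with array weights (0.0239), while leaving out samples gave −1.38 to −0.93. Asns passed at −0.66, −0.65, −0.67 (trend), −0.67 (weights) and, at the looser threshold, −0.67, with −0.89 to −0.54 over samples left out. Eif4ebp1 passed at −0.71, −0.69, −0.72 (trend), −0.70 (weights) and, at the looser threshold, −0.72, with −0.84 to −0.59 over samples left out. Fgf21 passed at the looser threshold alone, at −0.65. The cause was not tested.

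Scaling to a common median put the median of all genes at 0.17 instead of 0.01, and there 1 of the 10 genes instead of 5 was lower at an unadjusted p under 0.05, against 1.53% of all genes, and calls over all genes split into 20 higher and 7 lower in place of 31 and 72. That split was 304 and 350 with an offset of 50, 264 and 294 without background correction, and 151 and 162 with the deposited values. Under it Atf4 was 0.0066 and Psat1 0.079, which are −0.16 and −0.09 relative to that shift, and Trib3 was −1.11 relative to it. The medians of the mitochondrial and the mTORC1 lists turned to 0.14 and 0.16 there, and that of the tRNA synthetases was −0.06. Psat1 also turned without PBS replicate 2 and DT replicate 2 (range −0.20 to 0.0058), and Ddit3 without PBS replicate 1 (range −0.15 to 0.40). Under the other settings 4 to 6 of the 10 genes were lower at an unadjusted p under 0.05, where the share of all genes ran from 6.94% (without DT replicate 2, 4 genes) to 16% (array weights, 4 genes) and was 9.92% where 6 were lower (without PBS replicate 1). Of 5 genes with DT below PBS throughout, 1 was so in the signal before normalization and 3 of 9 relative to Atf4, both added after the data were seen.

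With the replicate number as a block, 0 of the 10 genes passed and Trib3 had an adjusted p of 0.099. Same-numbered samples correlated at −0.10, −0.18 and 0.03 in their deviations from the group means, and differently numbered ones at −0.11 to 0.22. With 3 samples a group, these values cannot settle whether the numbers pair the samples. Dim probes limit Fgf21, Sesn2 and the further probes of Trib3.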
